A study of Rattus norvegicus with 4 samples.

Results

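The AP-1, Egr and Myc factors are transcription factors whose genes many cells switch on within minutes of a growth or stress signal. Their transcripts were followed here in neonatal rat ventricular myocytes, the beating muscle cells of newborn rat hearts grown in a dish. The members were 10 genes chosen by name (Fos, Fosl1, Fosl2, Jun, Junb, Jund, Atf3, Egr1, Egr2 and Myc), and every probe set whose single gene symbol in the platform annotation was one of them was taken. This gave 15 probe sets for 10 of the 10411 genes with a symbol on the array. The rule used gene symbols and no measured value, though the members were chosen with earlier results of these data known. The fibronectin group grew on a coat of fibronectin, the adhesive matrix protein that cells grip through integrins, and the control group on uncoated dishes, with 2 arrays in each of the 2 groups. All cells of both groups had spent 24 h with 10% serum and then 48 h in medium free of serum. Whether replicates came from separate cultures is not stated, so p-values reflect the scatter among these arrays alone, and part of it may be technical.

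AP-1 is a dimer of basic leucine zipper proteins, usually a Fos protein with a Jun protein, and Atf3 joins the same dimers. Egr proteins are zinc finger factors whose genes are switched on through serum response factor and its MAP kinase-dependent partners, and Myc acts with its partner Max on genes of growth and ribosome building. In cardiac myocytes a brief burst of Fos, Jun, Egr1 and Myc transcripts is a classical early response to stretch and hypertrophic agonists. These transcripts are short-lived, and the arrays sampled the cells days after plating.

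Values below are quantile-normalized intensities, comparable between arrays for 1 probe set but not between probe sets. Differences are in log2 units, fibronectin minus control, after intensities under the 20th percentile of all values were raised to that floor of 23.4. Of the 15 probe sets, 8 from 7 genes were bright enough to be tested, and 7 fell among the 40% left out as dim. Atf3, Fosl2 and Jund had dim probe sets only. The filter took the mean over all 4 arrays, so a probe set could pass through its brighter group alone. Fos 1375043_at and Egr2 1387306_a_at had control means of log2 signal (5.52 and 5.81) under the cutoff. Fosl1 had such a mean on fibronectin (5.90). Counts and medians of the tested members rest in part on these probe sets. Fibronectin replicate 2 stood apart over all tested probe sets, with correlations of log2 signal from 0.775 to 0.794 with the other arrays, against 0.847 to 0.911 among those. The 3' to 5' signal ratio of the Gapdh control transcript was 6.02 on fibronectin replicate 1, 3.52 on fibronectin replicate 2, 1.64 on control replicate 1 and 1.15 on control replicate 2. In the same order it was 13.0, 6.29, 1.46 and 1.40 for beta-actin and 3.11, 7.00, 3.77 and 4.12 for hexokinase. The part of that imbalance in the differences below was not tested. In bulk RNA, fewer cells of a type and less RNA per cell cannot be told apart.

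The measured differences of the factors did not all have the same sign, though every tested interval included 0. Atf3 was measurable on both fibronectin arrays and below the floor on both control arrays, and 1 of the 2 Fos probe sets was about 2.25-fold higher on fibronectin. Fosl2 went the other way, below the floor on both fibronectin arrays and above it on both control arrays. The tested probe sets of Jun, Junb, Egr1 and Myc differed by less than the larger of their 2 group SDs. Of the 8 tested probe sets, 0 passed limma's Benjamini-Hochberg threshold and 0 had an unadjusted p under 0.05. With no filter 2 of the 15, Fosl2 and Atf3, had an unadjusted limma p under 0.05, where 1058 of all 15866 probe sets did. In each of these, both arrays of 1 group were raised to the floor. The spread of that group was thus set to 0 by the processing, and these p-values cannot be relied on. With no intensity trend 1 of the 8, Fos 1375043_at, had such a p, where 577 of 9519 did. In both settings 0 passed after adjustment. Over the whole array, 0 of 9519 tested probe sets (0%) passed after adjustment, and 619 (6.50%) had an unadjusted p under 0.05.

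**Figure D1:**
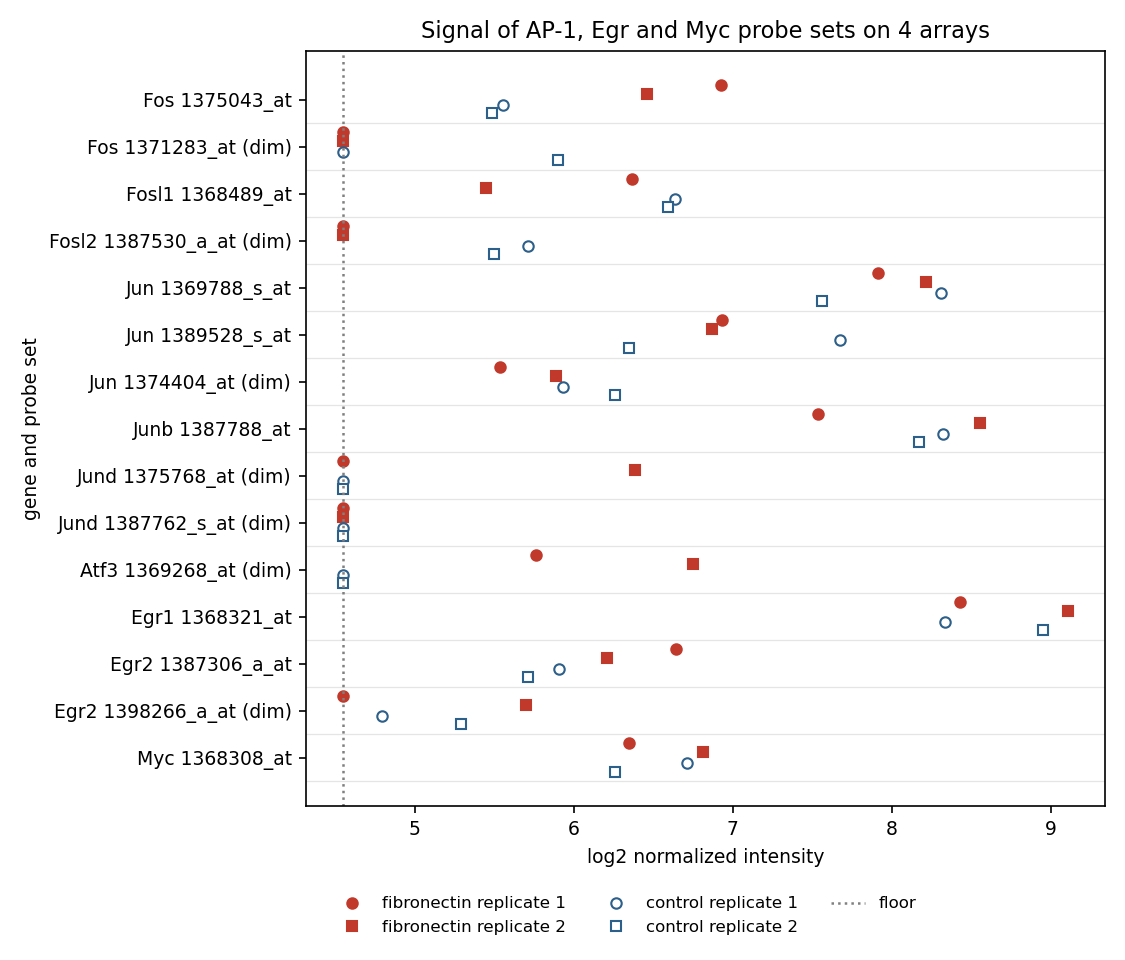
The log2 normalized intensity of the 15 probe sets (rows) on each array is plotted, with filled red symbols for fibronectin and open blue symbols for control, circles for replicate 1 and squares for replicate 2. The dotted line is the floor of 4.55. Fibronectin and control symbols separate for Fos 1375043_at, Atf3 and Egr2 1387306_a_at on the high side and for Fosl1, Fosl2 and Jun 1374404_at on the low side.

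Counting every probe set, dim ones included, 3 of 15 were higher on both fibronectin arrays than on both control arrays, where 16.0% of all 15866 probe sets were. Likewise 3 of 15 were lower, where 15.7% of all probe sets were. Both shares lie near their background. A difference of at least 1 without overlap was seen in 2 probe sets on the higher side (Fos 1375043_at and Atf3), against a background of 4.37%, and in 1 on the lower side (Fosl2), against 5.61%. Of these only Fos 1375043_at was among the 8 tested, where the background in either direction was 9.20% of tested probe sets. It passed the filter only through its fibronectin arrays, where it was brighter, so its place in that count is no support. The median difference of the 8 tested probe sets was 0.11, beside -0.02 for all tested probe sets. Set against the control mean of each probe set, their median was -0.11 on fibronectin replicate 1 and 0.32 on fibronectin replicate 2. The fibronectin arrays thus lay on opposite sides of that mean. On control replicates 1 and 2 the median was 0.09 and -0.09. These mirror each other and are drawn toward the mean because the control arrays are the reference, so the distances of the groups from it cannot be compared.

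Fos, the founding AP-1 subunit, which binds DNA only as a partner of Jun proteins, had 2 probe sets, and they did not show the same pattern. Probe set 1375043_at read 122 and 88.1 on fibronectin replicates 1 and 2, against 47.1 and 44.8 on control replicates 1 and 2. Both fibronectin values were above both control values. The mean log2 signal was 6.69 ± 0.33 on fibronectin and 5.52 ± 0.05 on control (SD, n = 2 each), a difference of 1.17 (SE 0.67, 95% interval -0.39 to 2.73), with limma's Benjamini-Hochberg adjusted p = 0.770. With 1 array left out it ran from 0.94 to 1.40, and with an offset of 50 in place of the floor it was 0.68. Probe set 1371283_at, one of the dim ones, read 13.9 and 17.0 on the fibronectin arrays, against 17.6 and 59.7 on the control arrays. Only control replicate 2 was above the floor, so the groups overlap at the floor and no fold is given. Without the floor both fibronectin arrays were lower than both control arrays, with a difference of -1.08. The deposited values had the same order, at 14.3 and 13.6 on fibronectin against 20.9 and 55.5 on control.

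Fosl1 encodes Fra-1, a Fos relative that lacks the strong activation domain of Fos. It read 82.3 and 43.6 on fibronectin, against 99.4 and 96.6 on control. Both fibronectin arrays were lower, replicate 1 only by a little. The difference was -0.71 (SE 0.66, 95% interval -2.24 to 0.82), with limma's Benjamini-Hochberg adjusted p = 0.809. It was -0.25 without fibronectin replicate 2. On the deposited scale the groups overlapped slightly, with 85.784 on fibronectin replicate 1 and 85.776 on control replicate 2.

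Fosl2 encodes Fra-2, the other Fra protein. Its probe set 1387530_a_at read 12.6 and 8.12 on fibronectin, against 52.5 and 45.2 on control. Both fibronectin arrays were under the floor and both control arrays above it, and the deposited intensities showed the same order, at 12.5 and 7.79 on fibronectin against 59.0 and 42.9 on control. Relative to the floor the transcript was at least 2.08-fold lower on fibronectin. The probe set was too dim for the test. When all probe sets were tested without the filter, limma's Benjamini-Hochberg adjusted p was 0.507, with both fibronectin arrays set to the same floor value. The lowest of these readings rest on coarse numbers, since the deposited values of fibronectin replicate 2 are whole multiples of 1.95 and its Fosl2 value is 4 such steps. That step holds for the whole array, whose median was 50 steps, against 390 to 1108 on the other arrays. Its Fos 1375043_at and Atf3 values were 44 and 52 steps.

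The 160 bases before the annotated start of Fosl2 are set beside those of Jund and Egr2, to show which of these promoters hold the sequences through which AP-1, ATF and serum response factors are known to act. They are from RefSeq's GRCr8 assembly, all on the minus strand and written 5' to 3', at chr6:30039270-30039429 for Fosl2, chr16:18769772-18769931 for Jund and chr20:21054442-21054601 for Egr2. The annotation also gives Egr2 a longer gene that spans the stretch shown. Capitals mark matches to the motifs searched.
Fosl2: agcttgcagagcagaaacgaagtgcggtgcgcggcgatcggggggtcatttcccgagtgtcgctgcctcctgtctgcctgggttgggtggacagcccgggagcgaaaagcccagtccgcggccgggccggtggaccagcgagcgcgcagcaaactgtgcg
Jund: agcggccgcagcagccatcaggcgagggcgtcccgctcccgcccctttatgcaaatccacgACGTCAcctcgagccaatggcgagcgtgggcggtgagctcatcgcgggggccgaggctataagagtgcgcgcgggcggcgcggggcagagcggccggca
Egr2: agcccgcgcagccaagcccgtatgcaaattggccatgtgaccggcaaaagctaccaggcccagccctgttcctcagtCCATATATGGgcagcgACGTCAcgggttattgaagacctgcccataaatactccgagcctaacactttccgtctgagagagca
Promoter entries, each 250 bases before to 50 after the start, were matched for 6 of the 10 members: Fosl1, Fosl2, Junb, Jund, Egr1 and Egr2. On both strands the motifs searched were the cyclic AMP response element TGACGTCA, its first 6 bases TGACGT (so that each full element also counts here), the AP-1 element TGACTCA, the Myc E-box CACGTG and the CArG box that serum response factor binds. The CArG box was found in the promoters of Egr1 and Egr2, against 1.64% of all 33469 promoters. In Egr2 it begins 83 bases before the start, and Egr1 has one at the same distance and another at 105 bases. TGACGT was found in Egr1, Egr2 and Jund, against 7.94% of all promoters, and the whole element TGACGTCA in Jund, 221 bases before its start and outside the stretch shown, against 1.83%. TGACTCA and CACGTG were found in 0 of the 6 windows, against 4.63% and 6.42% of all promoters. A match is a description of letters and not of binding.

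Jun, the strongest activator of the Jun family and the usual partner of Fos, was measured by 3 probe sets. Its brightest, 1369788_s_at, read 241 and 296 on fibronectin, against 317 and 188 on control. The fibronectin values lay between the control values. The difference was 0.13 (SE 0.41, 95% interval -0.82 to 1.08), with limma's Benjamini-Hochberg adjusted p = 0.951. Probe set 1389528_s_at read 122 and 117 on fibronectin, against 204 and 81.3 on control, again inside the control range, and differed by -0.11 (SE 0.57). The suffix of both marks probe sets whose probes match more than 1 transcript of the array's design, so signal from similar transcripts cannot be set apart. The dim 1374404_at read 46.5 and 59.2 on fibronectin, against 61.2 and 76.5 on control, a difference of -0.38 with both fibronectin arrays just under both controls. With 1 array left out the sign of the brightest probe set turned in 2 of the 4 cases, at -0.02 without fibronectin replicate 2 and -0.25 without control replicate 2.

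Junb, a weaker activator that can restrain Jun, read 186 and 376 on fibronectin, against 319 and 287 on control. The fibronectin arrays lay on either side of both controls. The difference was -0.20 (SE 0.43, 95% interval -1.20 to 0.81), with limma's Benjamini-Hochberg adjusted p = 0.925. It was 0.31 without fibronectin replicate 1. Jund, the family member that resting cells usually keep, could hardly be read. Its probe set 1387762_s_at was under the floor on all 4 arrays, at 4.61 and 5.42 on fibronectin and 5.15 and 5.58 on control. Probe set 1375768_at read 4.77 and 83.7 on fibronectin, against 19.4 and 12.6 on control. Fibronectin replicate 2 alone was above the floor, and without it both groups were at the floor.

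Atf3, a stress-induced member of the ATF family that can pair with Jun proteins and often represses, was below the floor on control arrays only. Its probe set 1369268_at read 54.4 and 108 on fibronectin, against 8.04 and 13.3 on control. In the deposited table these were 55.0 and 101 on fibronectin and 9.10 and 12.6 on control. Both fibronectin arrays were above the floor and both control arrays well under it. Against that floor the transcript was at least 3.27-fold higher on fibronectin, a log2 difference of 1.71 that ran from 1.22 without fibronectin replicate 2 to 2.20 without fibronectin replicate 1. The probe set was left out as dim. When all probe sets were tested without the filter, limma's Benjamini-Hochberg adjusted p was 0.645, with both control arrays set to the same floor value. Over the array, 694 of 15866 probe sets were higher by at least 1 without overlap, the background of 4.37% given above.

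**Figure D2:**
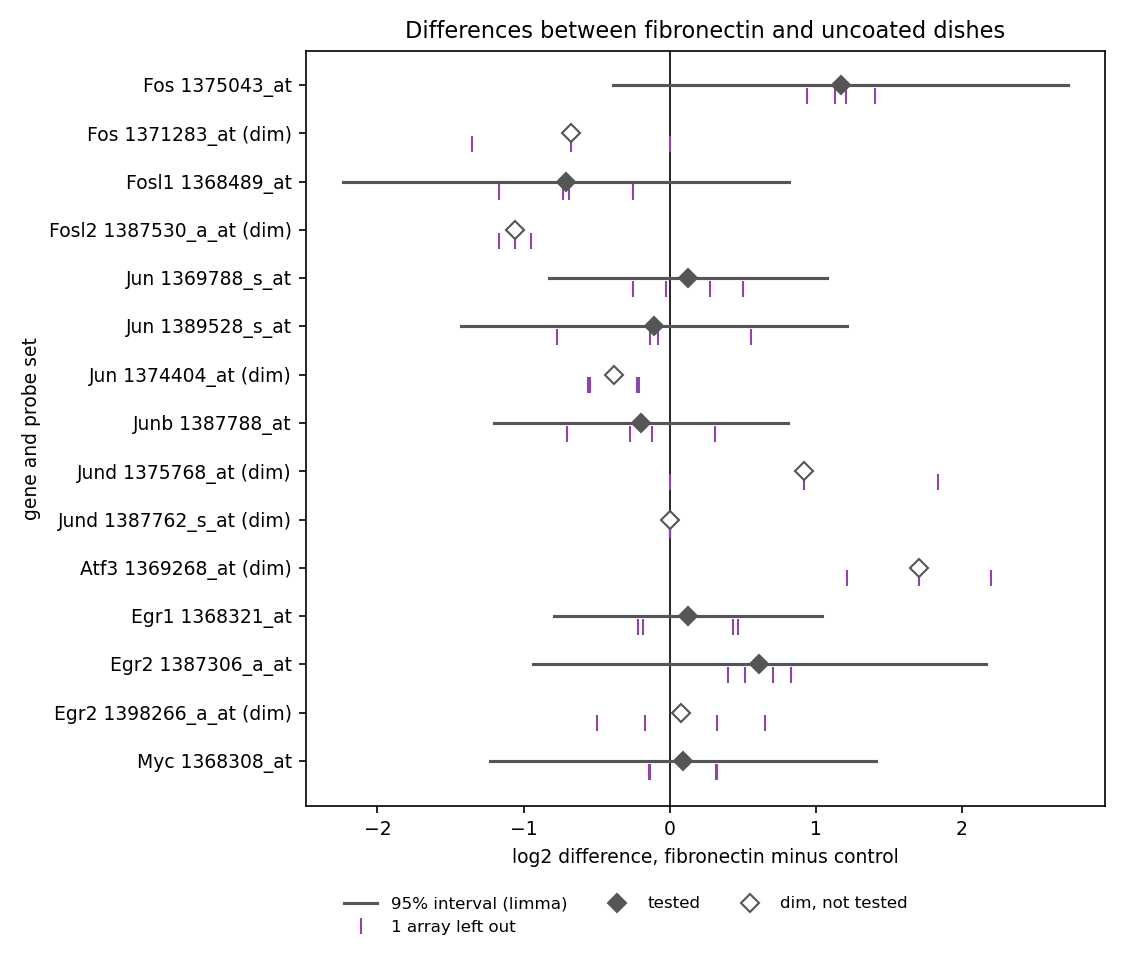
The log2 difference (fibronectin minus control) of each of the 15 probe sets is drawn as a diamond, filled where tested and open where dim, with limma's 95% interval for the 8 tested ones and purple ticks for the value with each array left out. Every interval includes 0. The ticks of Fos 1375043_at, Atf3 and Egr2 1387306_a_at stay above 0 and those of Fosl1, Fosl2 and Jun 1374404_at stay below, while those of Jun 1369788_s_at, Jun 1389528_s_at, Junb, Egr1, Egr2 1398266_a_at and Myc fall on both sides.

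Egr1, the immediate-early zinc finger factor that follows serum response factor, read 344 and 552 on fibronectin, against 323 and 493 on control. The groups overlapped after normalization, and replicate 2 was brighter than replicate 1 in each. In the deposited table they did not overlap, at 427 and 446 on fibronectin, against 351 and 411 on control. The difference was 0.13 (SE 0.39, 95% interval -0.79 to 1.04), with limma's Benjamini-Hochberg adjusted p = 0.949. It turned to -0.21 without fibronectin replicate 2 and to -0.18 without control replicate 1. The interval leaves room for a change of up to 2.06-fold higher or 1.73-fold lower.

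Egr2, a relative of Egr1 known for its part in myelination, is the member with the CArG box printed above. Its tested probe set 1387306_a_at read 99.8 and 73.9 on fibronectin, against 59.95 and 52.46 on control. Both fibronectin values exceeded both control values. The difference was 0.62 (SE 0.67, 95% interval -0.94 to 2.17), with limma's Benjamini-Hochberg adjusted p = 0.833. It ran from 0.40 to 0.83 with 1 array left out. The dim 1398266_a_at read 8.36 and 52.1 on fibronectin, against 27.8 and 39.2 on control. There the fibronectin arrays lay outside the controls on both sides, and the difference was 0.08, or -0.66 without the floor.

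Myc, which drives ribosome building and growth, read 81.4 and 112 on fibronectin, against 105 and 76.7 on control. The groups overlapped. The difference was 0.09 (SE 0.57, 95% interval -1.23 to 1.41), with limma's Benjamini-Hochberg adjusted p = 0.976. It turned to -0.14 both without fibronectin replicate 2 and without control replicate 2.

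The partners and regulators of these factors were read by the brightest tested probe set of each gene, and 0 genes of any list passed limma's Benjamini-Hochberg threshold. Of 7102 genes tested in this way, 20.5% were higher and 17.3% lower on fibronectin without overlap, with a median difference of 0.02. Among 7 AP-1 and CREB/ATF partners, 0 were higher and 3 lower without overlap, and the median was -0.27. Atf4, an ATF factor of the amino acid and endoplasmic reticulum stress response, read 1292 and 1392 on fibronectin, against 1568 and 1590 on control, a difference of -0.24 (SE 0.27). Fosb, the remaining Fos gene, was under the floor on all 4 arrays. Jdp2, which represses through AP-1 sites, was dim, at 16.3 and 2.93 on fibronectin, against 47.5 and 74.6 on control. The named partners Atf2 and Crem also had dim probe sets only.

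Among 7 Egr relatives, corepressors and serum response factor partners, 0 were higher and 2 lower without overlap, with a median of 0.21. Over all genes 20.5% were higher and 17.3% lower in this way. Nab1, which binds Egr proteins and represses through them, read 59.3 and 17.0 on fibronectin, against 172 and 184 on control. Both fibronectin arrays were lower, replicate 2 under the floor, and the difference was -2.25 (SE 0.68), with limma's Benjamini-Hochberg adjusted p = 0.719. Its relative Nab2 read 165 and 245 on fibronectin, against 176 and 166 on control, a difference of 0.24 (SE 0.41). Egr3 differed by -0.57 (SE 0.52), Srf, the serum response factor itself, by 0.26 (SE 0.31) and by 0.01 in its other tested probe set, and its partner Elk1 by 0.49 (SE 0.63). Egr4 was dim. In the Myc and Max network 0 of 8 genes were higher and 1 lower without overlap, with a median of -0.40. Max, the obligate partner of Myc, differed by -0.09 (SE 0.41) and Mycn, the N-Myc gene, by -0.40 (SE 0.72). The Myc antagonists Mxi1, Mxd1 and Mxd4 differed by -0.43 (SE 0.47), -0.39 (SE 0.56) and -1.08 (SE 0.85).

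Of 9 upstream MAP kinase genes, 1 was higher and 3 lower without overlap, where 20.5% and 17.3% of all genes were, with a median of 0.05. Mapk8, the Jun kinase JNK1, read 150 and 108 on fibronectin, against 194 and 216 on control, a difference of -0.69 (SE 0.43). The p38 kinase gene Mapk14 differed by 0.37 (SE 0.45), and the ERK-activating kinases Map2k1 and Map2k2 by -0.26 (SE 0.35) and 0.55 (SE 0.35). These are transcript levels and carry no information on kinase activity.

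Many genes of the list of other immediate-early genes, though not all, share the fast and brief induction of Fos and Egr1. Of 23 tested, 0 passed the test, 18 had a difference below 0 and 5 above, and 11 (47.8%) were lower and 3 (13.0%) higher without overlap, where the share over all genes was 17.3% lower and 20.5% higher. The median difference was -0.35. This list was chosen with earlier results of these data known, so its shares beside those of all genes are a description and not a test. Without fibronectin replicate 2, an alternative added after seeing the data, 13 were lower and 3 higher, where the share over all genes was 32.6% lower and 38.6% higher. Zfp36, which encodes tristetraprolin, a protein that speeds the decay of AU-rich transcripts, read 168.1 and 95.04 on fibronectin, against 422 and 384 on control, a difference of -1.67 (SE 0.42), with limma's Benjamini-Hochberg adjusted p = 0.587. Nr4a1, the orphan nuclear receptor Nur77, read 73.5 and 43.6 on fibronectin, against 146 and 130 on control, a difference of -1.28 (SE 0.59). Both genes were lower on both fibronectin arrays. Ier3 differed by -0.85 (SE 0.42) and the MAP kinase phosphatase gene Dusp1 by -0.38 (SE 0.34), also without overlap. The Krüppel-like factors Klf6 and Klf10 differed by 0.06 (SE 0.37) and -0.10 (SE 0.40), with -0.64 (SE 0.62) in the other tested Klf6 probe set. Ier2 was dim and without overlap on the higher side, at 93.0 and 97.2 on fibronectin, against 57.3 and 32.1 on control.

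**Figure D3:**
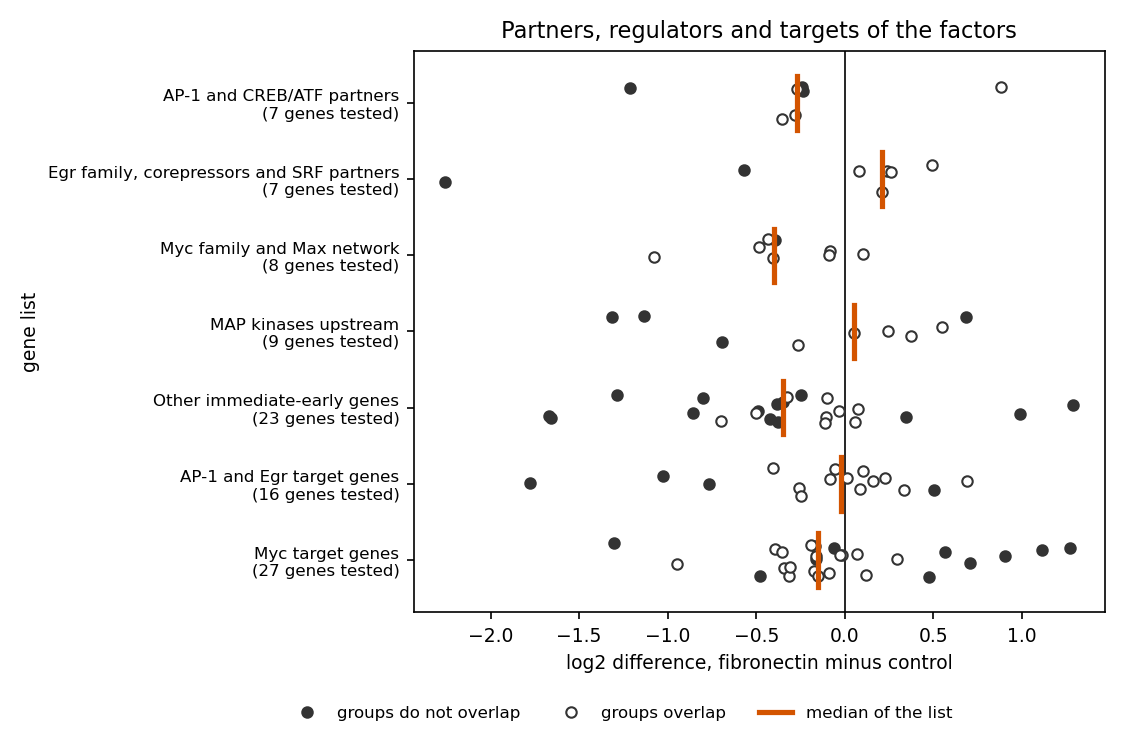
Each point is the log2 difference (fibronectin minus control) of 1 gene by its brightest tested probe set, in 7 lists of partners, regulators and targets, filled where the groups do not overlap, and an orange bar marks each list's median. The medians run from -0.40 for the Myc family and Max network to 0.21 for the Egr family list, and the immediate-early list, with a median of -0.35, has 11 filled points below 0 and 3 above.

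Known target genes differed in both directions. Of 16 targets of AP-1 and Egr, 1 (6.25%) was higher and 3 (18.8%) lower without overlap, beside 20.5% and 17.3% of all genes. A difference above 0 was seen in 8 and below 0 in 8, and the median was -0.02. Spp1, the matrix cytokine osteopontin, read 83.5 and 130 on fibronectin, against 249 and 510 on control, a difference of -1.78 (SE 0.49), with limma's Benjamini-Hochberg adjusted p = 0.663. Timp1, a metalloproteinase inhibitor, differed by 0.01 (SE 0.39), the hyaluronan receptor gene Cd44 by -0.25 (SE 0.63), or by -0.06 in its other tested probe set, and the cyclin gene Ccnd1 by 0.34 (SE 0.35), or by -0.56 in its other tested probe set. Of 27 Myc targets, 6 (22.2%) were higher and 4 (14.8%) lower without overlap, near the shares of all genes. Of the 27, 9 had a difference above 0 and 18 below, with a median of -0.15. Odc1, the rate-limiting enzyme of polyamine synthesis, read 396 and 548 on fibronectin, against 496 and 446 on control, a difference of -0.01 (SE 0.34). Ncl, the nucleolar protein nucleolin, differed by -0.34 (SE 0.51), Ldha by 0.12 (SE 0.26), Cdk4 by -0.31 (SE 0.33), Srm by -0.31 (SE 0.44) and Nolc1 by -0.19 (SE 0.39), or by 0.22 in its other tested probe set.

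Of 12 ventricular myocyte markers, 11 were bright enough to be tested. Among them was Tnnt2, the cardiac troponin T gene, at 11218 and 8417 on fibronectin and 13034 and 8920 on control. All 12 fibroblast markers were bright enough too, so such a count does not tell which cells made up the cultures. Markers of other cells were present too. The summed signal of 7 tested leukocyte markers was 1377 and 1615 on fibronectin and 2050 and 2588 on control, with no overlap. Those 7 were the tested ones among 12 on the array. Ptprc, which defines leukocytes, had dim probe sets only, which differed by 0.24 and 0.47. Most of the sum came from Lyz2 and Lgals3. Lyz2 read 373 and 706 on fibronectin and 622 and 894 on control. For Lgals3 it was 445 and 518 on fibronectin and 663 and 868 on control. The summed signal of 12 fibroblast markers was 37798 and 52920 on fibronectin and 48866 and 67686 on control. That of 4 neural and Schwann markers was 1961 and 2219 on fibronectin and 1264 and 1294 on control. A sum follows its brightest probe sets. Gene by gene, 9 of the 12 fibroblast markers had a difference below 0, with a median of -0.67, and 5 of them (41.7%) were lower without overlap, beside 17.3% of all genes. Of the 7 leukocyte markers 4 were lower without overlap, with a median of -0.54. Of the 4 neural and Schwann markers 3 were higher without overlap, beside 20.5% of all genes, with a median of 0.90. Those 4 were the tested ones among 10 on the array. Prph, 1 of those 3, read 80.3 and 198 on fibronectin and 62.7 and 25.9 on control. It passed the filter only through its fibronectin arrays, where it was brighter. Sox10, Mbp and S100b of that list had dim probe sets only, and S100b differed by -0.38. Pmp22 made up most of the list's sum, at 1276 and 1165 on fibronectin and 698 and 988 on control. None of the tested markers passed the test. The marker lists were chosen with earlier results of these data known. Smooth muscle markers summed to 7675 and 10293 on fibronectin and 6955 and 12051 on control, with 7 of 8 tested. Of 11 endothelial markers 3 were tested, and Pecam1 and Vwf were dim. The part of these cells in the lower immediate-early transcripts, in Spp1 and in Egr2 was not tested.

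Among 7095 other genes, those closest in pattern over the 4 arrays were found by the root mean square difference of centred log2 signals. For Fos 1375043_at they were Mcam at 0.07, Ns5atp4 at 0.08 and Foxs1 at 0.08. For Jun they were Sh3d19, Bbln and Hcfc1r1, for Egr1 Apmap, Actn2 and Rtn4rl1, and for Myc Alkbh7, Ppard and Cyp2e1, all at 0.04 or less. Each likeness rests on 4 values per gene.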

How the data were processed

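Each of the 4 arrays, an Affymetrix rat expression array, gave 1 deposited linear intensity per probe set (15875, including 9 control probe sets left out here). The sources used here do not say how the authors made these intensities, but the values show that each array was scaled by its own constant. They were quantile normalized, raised to a floor at the 20th percentile (23.4) and taken to log2. The 40% dimmest probe sets by mean over the 4 arrays were left out, and 9519 were tested with limma (lmFit, then eBayes with its trend option; version 3.58.1, R 4.3.3), two-sided, with Benjamini-Hochberg adjustment over all of them and a threshold of 0.05. Errors beside differences are limma's moderated SE. An exact permutation test of 2 against 2 cannot go below p = 0.333, and for arrays their number limits the precision.

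Gene names came from the platform annotation. Motifs and promoters came from RefSeq's GRCr8 tables. The test was also tested on simulated data with known shifts. The members and the gene lists were chosen with earlier results of these data known. Named list genes were marked by hand, whatever their values; of 58 marked, 39 had a tested probe set, 12 had dim ones only and 7 carried no probe set name. Over the tested probe sets, deviations of the replicate 1 arrays from their group means correlated at 0.27 between the groups. With 2 arrays per group the replicate 2 deviations are the exact negatives and add nothing. This is too little to say that the numbers pair the samples. Alternatives covered scaling, filter, floor, variance model, replicate block and each array left out.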

Additional observations from a re-analysis of the deposited data

How the results depend on the processing

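No member probe set passed limma's Benjamini-Hochberg threshold under any of the 14 alternatives. Over the whole table the number past it was 0 in the main analysis, ran from 0 to 276 with 1 array left out (276 without fibronectin replicate 1, 2 without fibronectin replicate 2 and 12 without control replicate 1, where the single array is taken to scatter as its counterparts do), and was 230 with the replicate block. The count of tested members with a difference of at least 1 without overlap was 1, and was 3 with no filter, 0 with 60% left out as dim and 0 with the offset, and 1 in each case with 1 array left out. That 1 was Fos 1375043_at, on the higher side, except without fibronectin replicate 1, where it was Fosl1 at -1.17 and Fos was at 0.94. At an unadjusted limma p under 0.05 there were 2 of 15 member probe sets with no filter (Fosl2 and Atf3, each with 1 group at the floor). Of all 15866 probe sets 1058 were under it in that setting. With no intensity trend it was 1 of 8 (Fos 1375043_at), where 577 of all 9519 tested probe sets were. Without fibronectin replicate 2 Fos 1375043_at differed by 1.40. The median difference of tested members ran from -0.19 to 0.41 with 1 array left out, and with the replicate block it was 0.11 and the large count 1, as without it. Signs turned with 1 array left out in 8 cases among tested probe sets, namely Jun 1369788_s_at (-0.02 and -0.25, range -0.25 to 0.50), Jun 1389528_s_at (0.56, range -0.77 to 0.56), Junb (0.31, range -0.70 to 0.31), Egr1 (-0.21 and -0.18, range -0.21 to 0.47) and Myc (-0.14 in both, range -0.14 to 0.32), and in 2 cases for the dim Egr2 1398266_a_at (-0.50 without fibronectin replicate 2 and -0.17 without control replicate 1); the cause was not tested. The lower bounds for Atf3 and Fosl2 follow the floor: without it the differences were 2.89 and -2.27, and with the offset 1.08 and -0.71. Signal near the floor limits Atf3, Fosl2, Jund and the dimmer Fos and Egr2 probe sets.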

Other observations

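Among immediate-early genes not named above, picked out after their values were seen, the matricellular genes Ccn1 and Ccn2 differed from most of their list. Ccn2, connective tissue growth factor, read 6232 and 4747 on fibronectin, against 2026 and 3705 on control, a difference of 0.99 (SE 0.34). Ccn1 read 204 and 161 on fibronectin, against 139 and 39.4 on control, a difference of 1.29 (SE 0.67). Sgk1, a kinase induced by serum and glucocorticoids, read 94.6 and 23.4 on fibronectin, against 131 and 168 on control, a difference of -1.66 (SE 0.78), with fibronectin replicate 2 at the floor. Creb1, the cyclic AMP response element binding factor, was picked in the same way from the AP-1 and CREB/ATF partners and not from the immediate-early list. It read 99.3 and 72.2 on fibronectin, against 156 and 246 on control, a difference of -1.21 (SE 0.49). None passed limma's test, with Benjamini-Hochberg adjusted p from 0.719 for Ccn2 to 0.761 for Ccn1 and Sgk1.

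Among Myc targets picked in the same way, Nme1, a nucleoside diphosphate kinase, read 556 and 852 on fibronectin, against 287 and 353 on control, a difference of 1.11 (SE 0.36), and Rrs1, a ribosome assembly factor, differed by 1.27 (SE 0.51). Ppat, the first enzyme of purine synthesis, differed by -1.30 (SE 0.55). Limma's Benjamini-Hochberg adjusted p was 0.719, 0.750 and 0.760 for these genes.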
